A study of Mus musculus with 6 samples.

Results

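The genes described here are the 7 that encode the neuropeptides VIP, PACAP and GRP and their receptors. They were Vip, Adcyap1 (PACAP), Grp, Vipr1 and Vipr2 (the VIP receptors VPAC1 and VPAC2), Adcyap1r1 (the PACAP receptor PAC1) and Grpr (the GRP receptor). They were taken by gene symbol, and all 7 were among the 17645 genes listed in at least 1 library and were listed in every library. Tissue was the suprachiasmatic nucleus (SCN), the seat of the master circadian clock in the hypothalamus, from female C57BL/6 mice killed in the dark at ZT 12 to 14 (zeitgeber time in h, counted from lights on). It was cored out of frozen coronal sections with a needle, and each library pooled RNA of 2 SCN. There were 3 libraries titled V (replicates 2, 3 and 4) and 3 titled r1r2V (replicates 1, 4 and 5). The series title describes a knockout of REV-ERBα and REV-ERBβ, the clock repressors encoded by Nr1d1 and Nr1d2, in GABAergic neurons. The r1r2V libraries were read as that knockout and the V libraries as its control. The titles do not spell out V, and the sources used here do not give the Cre driver, the alleles of the controls or the age of the mice. Nothing says whether pools came from separate animals, so p-values measure only the spread between these libraries, which may be technical.

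VIP is made by neurons of the ventral SCN, where light input arrives, and acts through VPAC2, a receptor that raises cyclic AMP, to keep SCN neurons synchronised with each other. PACAP is released by the retinal axons that reach the SCN and binds PAC1 and both VPAC receptors. The cell bodies of those axons lie in the retina, outside the tissue taken here. GRP is made by other ventral SCN neurons and acts through the GRP receptor, which is coupled to phospholipase C and calcium. Signals of all 3 peptides reach the factor CREB, which binds the cyclic AMP response element (CRE).

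The stretches before the start sites of 3 members are shown because each holds the first 7 letters of that element, TGACGTC, given in capitals. They are the 150 bases that end just before the start site of a listed transcript, 5′ to 3′ on the strand of the gene, from the RefSeq promoter table of GRCm38.p6. Vip lies at chr10:5639068-5639217 on the plus strand, Adcyap1 at chr17:93198867-93199016 on the plus strand and Grpr at chrX:163549737-163549886 on the minus strand. RefSeq starts the gene Adcyap1 at chr17:93198245, so its stretch lies wholly inside the annotated gene. It starts Vip at chr10:5639193, so only the end of that stretch lies inside the gene.
Vip: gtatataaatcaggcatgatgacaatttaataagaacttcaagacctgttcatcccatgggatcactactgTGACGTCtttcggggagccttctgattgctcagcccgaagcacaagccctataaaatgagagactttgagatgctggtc
Adcyap1: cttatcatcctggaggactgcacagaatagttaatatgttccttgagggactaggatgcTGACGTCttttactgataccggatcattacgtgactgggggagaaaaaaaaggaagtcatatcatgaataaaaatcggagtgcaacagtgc
Grpr: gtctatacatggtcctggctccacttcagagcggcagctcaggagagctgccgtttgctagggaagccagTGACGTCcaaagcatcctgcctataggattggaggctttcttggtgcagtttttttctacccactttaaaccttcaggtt

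The 7 letters began at position -79 in Vip and -80 in Grpr, counted back from the start site. Adcyap1 has windows for 2 start sites, and the same letters began at -91 from the one shown and at -242 from the other. In windows of 250 bases before to 50 bases after the start, TGACGTC on either strand was present in 3 of the 6 members with a window and in 3.6% of 27025 genes. The table gave windows for 6 members, all except Grp. The full element TGACGTCA, which overlaps the 7 letters, was in 0 of the 6 and in 2.03% of genes. The shorter TGACG, part of both, was in 4 of the 6, Vipr1 being the fourth, and in 23.0% of genes. The nuclear receptor core AGGTCA (18.1% of genes), TAGGTCA (2.97%), the core of the element that REV-ERB and ROR bind, the E-box CACGTG (8.09%) and the D-box TTATGNAA (3.99%) were in 0 of the 6. Both strands were searched, and the 7-letter form was added after the windows had been seen. Matches are descriptions of letters in these windows, not of bound sites.

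Library totals ranged from 15729603 to 17780928 expected counts. Neither targeted gene was lower in the libraries labelled r1r2V. Nr1d1 averaged 58.8 ± 3.27 CPM (counts scaled to a common library size) in V and rose to 167 ± 25.7 CPM in r1r2V (SD, n = 3 each), with an adjusted p of 8.24e-05 by edgeR's quasi-likelihood test. Nr1d2 did not pass, at a log2 difference of 0.47 (edgeR adjusted p = 0.0553). Directions below therefore rest on the titles. All 8 SCN transcription factor genes of the marker list (Six3, Six6, Lhx1, Lhx2, Rora, Rorb, Zfhx3 and Vax1) were detected in every library, with summed levels of 316 to 361 CPM across V and 280 to 332 CPM across r1r2V. Markers of neighbouring hypothalamic neurons were also present, 14 of 14 in every library, summing to 1533 to 1713 CPM across V and 1036 to 1879 CPM across r1r2V. No gene of the 14 marker lists passed the test. Replicate libraries differed more within r1r2V (chi-square per degree of freedom 11.65 to 13.51 over the 3 pairs) than within V (3.85 to 5.58). For Vip, r1r2V replicate 5 lay far from the other 5 libraries, and the members' results that rest on it are given with and without it.

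Per transcript length, the PACAP receptor was the most abundant of the 7 RNAs and the receptors VPAC1 and GRP receptor the least. In V the mean FPKM (fragments scaled by transcript length and by mapped fragments) was 65.2 ± 1.49 for Adcyap1r1, 44.0 ± 13.2 for Vip, 31.3 ± 4.47 for Adcyap1, 6.26 ± 0.520 for Grp, 4.29 ± 0.609 for Vipr2, 0.213 ± 0.0289 for Grpr and 0.153 ± 0.0473 for Vipr1 (SD, n = 3 each). Among all listed genes these V levels ranged from percentile 92.2 for Adcyap1r1 and 88.3 for Vip to 15.4 for Vipr1. In that order the library ranges of Vip and Adcyap1 overlapped, as did those of Grpr and Vipr1, and no other neighbours did. In r1r2V the order was the same except that Adcyap1 (32.1 ± 5.29 FPKM) stood just above Vip (30.9 ± 21.1 FPKM), with overlapping ranges (SD, n = 3 each). The VIP receptor of the SCN, Vipr2, was thus more than an order of magnitude below the PACAP receptor, with 12.9 to 27.0 FPKM of Adcyap1r1 per FPKM of Vipr2 over the 6 libraries. The deposited transcript length of each member varied by at most 1.28% between libraries. In GENCODE M21 no exon of another gene overlapped an exon of any of the 7, and a search for near-identical transcripts found 0 for each. Among the receptors, RefSeq places Vipr2 at chr12:116077420-116148637, Vipr1 at chr9:121642716-121672954 and Adcyap1r1 at chr6:55451501-55501455 on the plus strand, and Grpr at chrX:163513904-163549736 on the minus strand (GRCm38.p6).

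**Figure D1:**
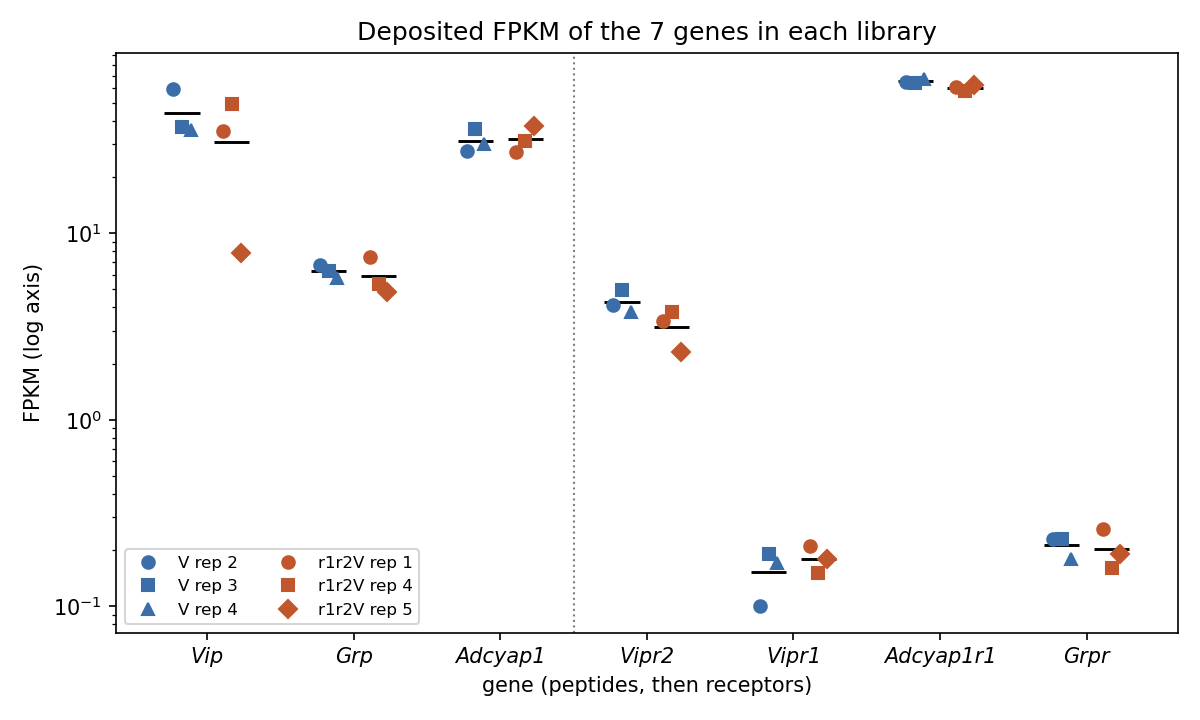
FPKM of each gene in each library on a log axis, with V libraries in blue, r1r2V libraries in orange and the group mean as a black bar. The 6 values of each gene lie close together beside the distance between genes, except for Vip, where r1r2V replicate 5 sits at 7.87 FPKM and the other 5 libraries between 35.37 and 59.27 FPKM.

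A difference in Vip RNA between the groups was not larger than the spread of the libraries, and a single library set most of the difference in means. Its level was 59.27, 36.92 and 35.85 FPKM in V replicates 2, 3 and 4, and 35.37, 49.34 and 7.87 FPKM in r1r2V replicates 1, 4 and 5. The first 2 of those r1r2V values lie in or just under the V range, and replicate 5 lies far below every other library. It had 196 expected counts of Vip (95% Poisson interval 169.5 to 225.4, which covers counting error only), against 816 to 1521 in the others. On the CPM scale the lowest of the other 5 libraries was 4.42-fold above it. The log2 fold change, r1r2V minus V, was -0.51 (SE 0.468, 95% interval from -1.55 to 0.53, edgeR adjusted p = 0.795). Without r1r2V replicate 5 it was -0.058 (edgeR adjusted p = 0.939), and the r1r2V mean was 42.4 FPKM. With limma-voom on all 6 libraries it was -0.83, and it did not pass. The interval spans from 0.341-fold to 1.45-fold, and these libraries do not tell the values inside it apart. In bulk RNA, fewer VIP cells and less Vip RNA per cell cannot be told apart.

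Grp, the peptide of the other ventral group of neurons, had 6.78, 6.25 and 5.74 FPKM in V and 7.49, 5.36 and 4.84 FPKM in r1r2V. The highest and both lowest of the 6 values were r1r2V libraries, so the V range lay inside the r1r2V range. The log2 fold change was -0.087 (95% interval -0.51 to 0.33, edgeR adjusted p = 0.918), and 0.031 without r1r2V replicate 5. Adcyap1, which encodes PACAP, had 27.59, 36.23 and 29.94 FPKM in V and 27.26, 31.32 and 37.76 FPKM in r1r2V. The groups overlapped over nearly their whole ranges. The log2 fold change was 0.042 (95% interval -0.25 to 0.33, edgeR adjusted p = 0.946), and -0.10 without r1r2V replicate 5, which held the highest value.

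Vipr2, the receptor through which VIP acts in the SCN, was lower in mean in the r1r2V libraries, but the difference did not pass. Its level was 4.12, 4.97 and 3.79 FPKM in V and 3.37, 3.77 and 2.31 FPKM in r1r2V. On this scale the lowest V and the highest r1r2V library nearly met, and on CPM the groups overlapped, with 12.6 CPM in r1r2V replicate 4 and 12.5 CPM in V replicate 4. The log2 fold change was -0.44 (SE 0.175, 95% interval from -0.83 to -0.052). The unadjusted p was 0.0303 and the adjusted p 0.599 (edgeR). Leaving out 1 library gave -0.60 to -0.27, negative in all 6 fits, and -0.27 was the value without r1r2V replicate 5 (adjusted p = 0.503).

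Adcyap1r1, the PACAP receptor, had the narrowest spread of the 7. It had 64.84, 64.00 and 66.89 FPKM in V and 61.09, 57.66 and 62.29 FPKM in r1r2V. All 3 r1r2V libraries lay below all 3 V libraries, in FPKM and in CPM. The size was small, a log2 fold change of -0.11 (SE 0.0574, 95% interval -0.23 to 0.022), and it did not pass (edgeR adjusted p = 0.683). Because the groups did not overlap, leaving out 1 library could hardly change its sign. The log2 fold change then ran from -0.14 to -0.079.

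The remaining receptors were near the limit of this depth. Vipr1, which encodes VPAC1, had 9, 16 and 13 expected counts in V and 17, 13 and 15 in r1r2V, or 0.10 to 0.21 FPKM. Counting error alone allows 4.1 to 17.1 counts for the lowest of these libraries and 9.9 to 27.2 for the highest, so no order among them can be read. The log2 fold change was 0.22 with an interval from -0.49 to 0.95 (edgeR adjusted p = 0.869). Grpr had 10, 10 and 7 expected counts in V and 11, 7 and 8 in r1r2V, 27 and 26 in all, and did not pass the filter on low counts. Tested without that filter, its log2 fold change was -0.067 with an interval from -0.99 to 0.85 (edgeR adjusted p = 0.979). These counts do not tell the values inside that interval apart.

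Of the 6 members tested, 0 rose and 0 fell at an adjusted p under 0.05, where 0.416% of the 14438 genes tested were called, 0.298% higher and 0.118% lower. At an unadjusted p under 0.05, edgeR gave 1 member, Vipr2, against 7.58% of all genes. DESeq2, which called 0.755% of all genes, and limma-voom also called 0 members, each with 1 at an unadjusted p under 0.05. The groups did not overlap in CPM for 1 of the 6, Adcyap1r1, which was lower. Of all genes 14.5% did not overlap, 7.63% lower and 6.87% higher, so 1 of 6 is near the background. The median log2 fold change of the 6 was -0.10 and that of all genes tested 0.0089.

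**Figure D2:**
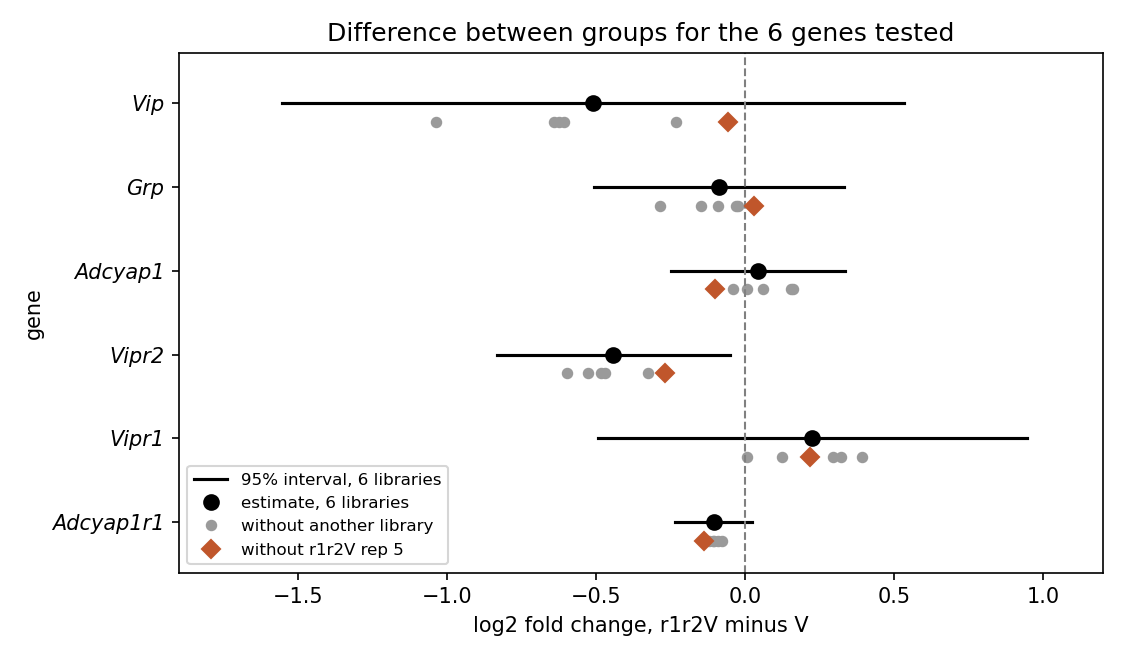
Log2 fold change (r1r2V minus V) of the 6 members tested, with its 95% interval in black, and below each the estimates with single libraries left out (grey dots, orange diamond without r1r2V replicate 5). Vip has the widest interval and moves from -0.51 to -0.058 without that library, while Adcyap1r1 stays between -0.14 and -0.079.

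In r1r2V replicate 5, 3 of the 7 genes had their lowest level of all libraries, at unequal distances from V. The share of all genes lowest in that library is not given here, so the count is not read as a trait of these genes. Relative to the V mean of log2 CPM, that library was at -2.42 for Vip, -0.86 for Vipr2 and -0.36 for Grp. Adcyap1 was at 0.30, its highest of the 6 libraries, and Adcyap1r1 at -0.05. The list of SCN transcription factors was at -0.25 there, GABAergic neuron genes at -0.22 and pan-neuronal genes at 0.08. Other SCN peptide and region genes went both ways. Their mean was -0.37. Prok2 (1.75 CPM), Nmu (0), Nms, Penk and Prokr2 had their lowest level of the 6 libraries there, while Avp, Calb1, Calb2 and Tac1 had their highest. The summed level of the list, 1542 CPM, was also the highest (1086 to 1399 CPM in the others). Neighbouring hypothalamic neurons had a mean of 0.03 that joined opposite extremes, with Pmch at 581 CPM (at most 213 CPM elsewhere) and Kiss1 at 0.175 CPM (at least 3.61 CPM elsewhere). That list varied widely in other libraries too, from -0.90 in r1r2V replicate 4 to 0.47 in V replicate 3. Meningeal fibroblast markers were at 1.12, with all 8 of 8 detected in every library and a summed level of 230 CPM, against 93.1 to 131 CPM in V and 89.3 and 108 CPM in the other r1r2V libraries. Their part in the low Vip value was not tested.

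**Figure D3:**
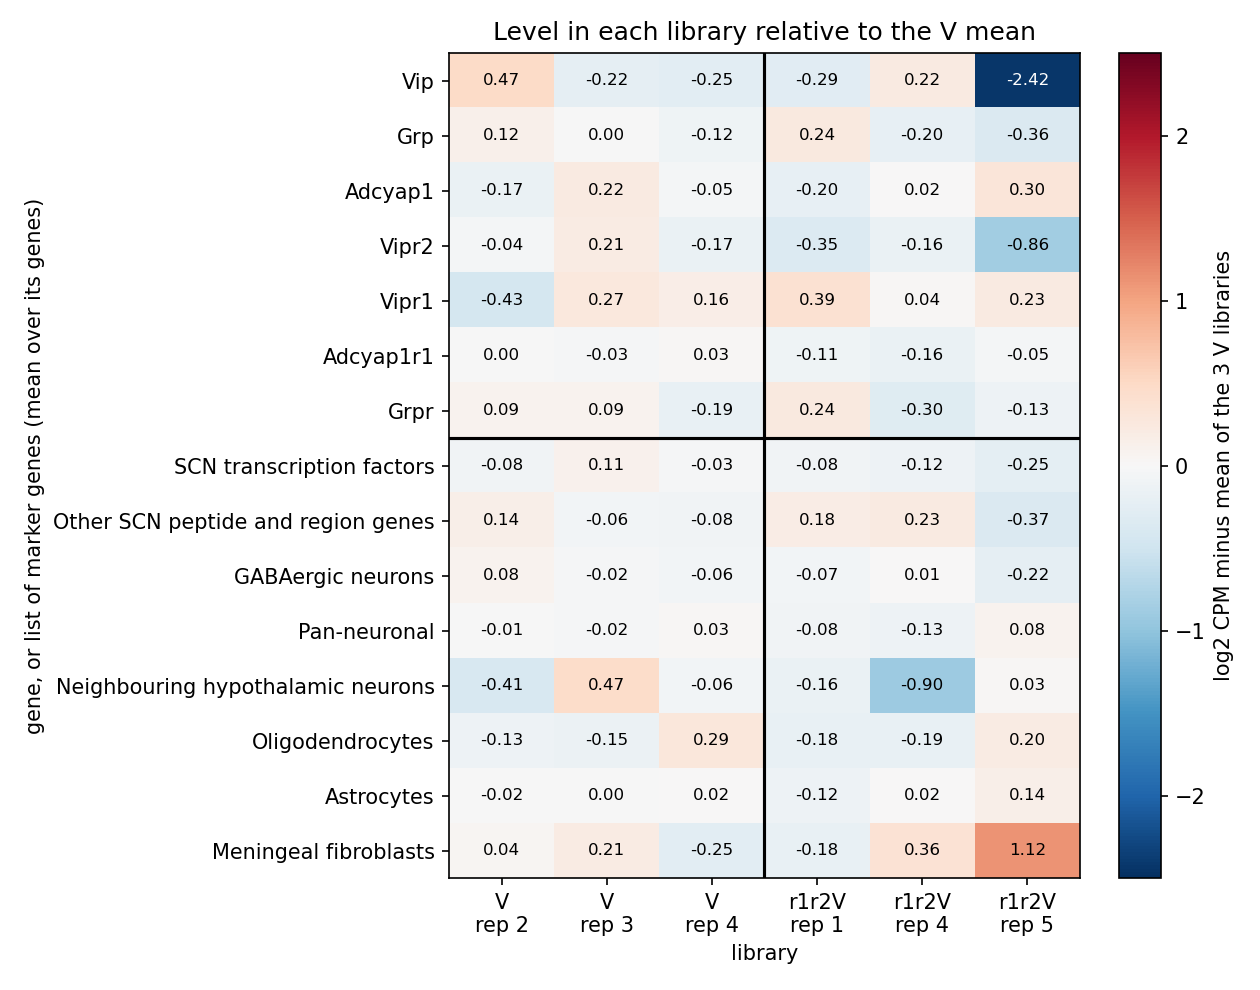
Log2 CPM of each member, and the mean over each list of marker genes, in each library relative to the mean of the 3 V libraries (blue lower, red higher). The rightmost column, r1r2V replicate 5, holds the lowest value of the grid, -2.42 for Vip, and the highest, 1.12 for meningeal fibroblasts.

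Set against the SCN transcription factors within each library, Vip stood at 1.70, 0.81 and 0.92 log2 units above their mean in V and at 0.93, 1.48 and -1.03 in r1r2V. So in 5 libraries Vip RNA lay above the factors' mean and in r1r2V replicate 5 below it. The groups differed by -0.68 (exact two-sided permutation test, p = 0.6, and 0.8 adjusted over the 7 members). With 3 libraries a group the smallest p this test can give is 0.1. Without r1r2V replicate 5 the difference was 0.065. The same difference was -0.31 for Vipr2, 0.19 for Adcyap1, 0.04 for Adcyap1r1 and 0.05 for Grp, with exact permutation p from 0.2 to 0.7. For Vipr1 and Grpr, both at low counts, it was 0.37 and 0.09 (exact permutation p = 0.3 and 0.8). The factors themselves were mostly lower in r1r2V, with a median log2 fold change of -0.18, 2 of 8 positive and 0 called. Setting a gene against them therefore raises its difference in mean log2 CPM. The edgeR log2 fold changes, such as -0.51 for Vip, are another measure and cannot be set beside these differences. Peptide and receptor also varied apart. The ratio of Vip to Vipr2 in FPKM was 14.4, 7.43 and 9.46 in V and 10.5, 13.1 and 3.41 in r1r2V, and that of Adcyap1 to Adcyap1r1 was 0.426, 0.566 and 0.448 in V and 0.446, 0.543 and 0.606 in r1r2V. Both pairs of ranges overlapped.

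Genes with a profile over the 6 libraries like that of Vip were ranked by the root-mean-square distance between log2 CPM values centred on each gene's mean, among 11786 genes that reached 5 CPM on average. The nearest was Gal, the gene of the peptide galanin, at a distance of 0.240 log2 units, where the median gene was at 0.945. Gal read 96.1, 59.9 and 63.1 CPM across V against 64.0, 99.0 and 21.0 CPM across r1r2V. Vip read 85.8, 53.0 and 51.8 CPM across V against 50.5, 72.0 and 11.4 CPM across r1r2V. In both, V replicate 2 and r1r2V replicate 4 were the highest libraries and r1r2V replicate 5 the lowest. Next came Brs3 (0.352), a receptor of the bombesin family to which the GRP receptor belongs, Nts (0.478), the neurotensin gene, Lhx8 (0.491), a LIM homeobox factor, and Gpr50 (0.520), a receptor related to the melatonin receptors. None of these 5 passed the test between groups (edgeR adjusted p from 0.889 to 0.966). Gal is also on the list of neighbouring hypothalamic neurons, and no gene of the other SCN peptide list was among the 5. The profile of Vipr2, the only other member tested with a range of at least 1 log2 unit, was nearest to Fam167a (0.0709), Hps1 (0.107), Tuft1 (0.131), Calml4 (0.133) and Spdya (0.141), where the median gene was at 0.346. Each of these likenesses rests on 6 libraries, and Vip and Vipr2 were both lowest in r1r2V replicate 5.

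**Figure D4:**
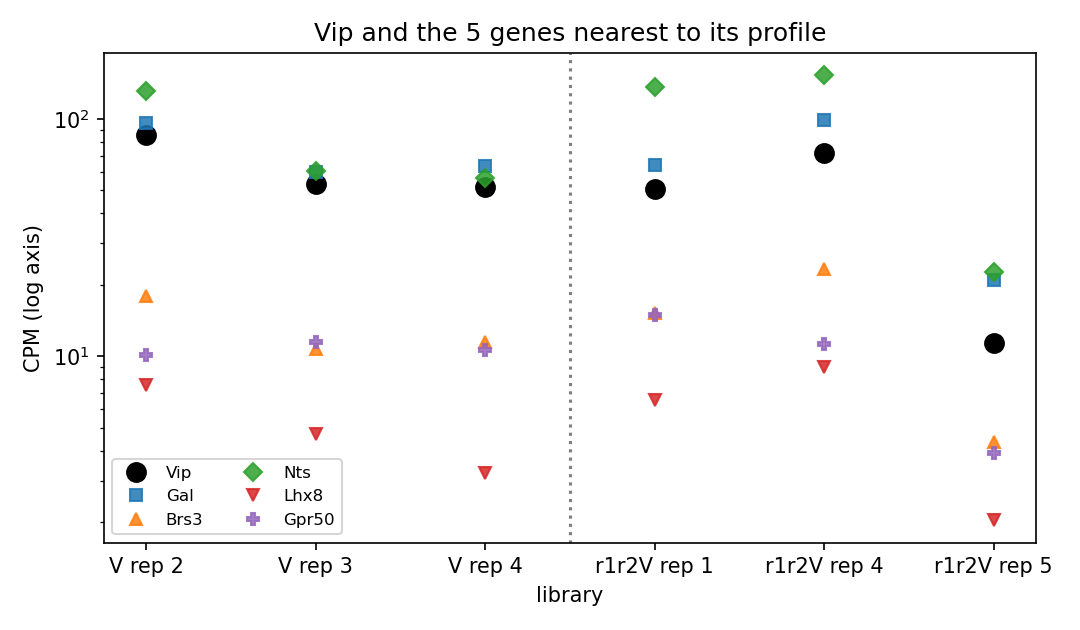
CPM of Vip (black) and of the 5 genes nearest to its profile in each library, on a log axis. For all 6 genes the lowest value is in r1r2V replicate 5, and Gal follows Vip most closely.

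In the lists nearest to the receptors no gene passed the test. Among related peptides and receptors of the secretin and bombesin families, 7 of 13 were tested, 0 rose and 0 fell (median log2 fold change 0.09). Ghrh, the gene of growth hormone-releasing hormone, averaged 4.99 ± 1.66 CPM for V and 3.54 ± 1.03 CPM for r1r2V, and Glp2r, a receptor for a glucagon-like peptide, 1.01 ± 0.230 and 1.23 ± 0.314 CPM (SD, n = 3 each). Of the 3 receptor activity-modifying proteins, which pair with receptors of this class, 0 rose and 0 fell, with Ramp1 at 70.0 ± 3.06 CPM for V and 67.2 ± 7.35 CPM for r1r2V (SD, n = 3 each) and Ramp2 at a log2 difference of -0.077. In the cyclic AMP arm, 19 of 20 genes were tested, 0 rose and 0 fell, and the median was -0.047. Adcy7, an adenylyl cyclase, read 37.5, 38.2 and 40.9 CPM across V against 36.5, 32.9 and 33.5 CPM across r1r2V (edgeR adjusted p = 0.609). Rapgef4, which encodes the cyclic AMP sensor EPAC2, read 138, 147 and 138 CPM across V against 154, 155 and 154 CPM across r1r2V (edgeR adjusted p = 0.660). For each, the groups did not overlap, Adcy7 being lower and Rapgef4 higher in r1r2V. Both were named for the smallest p of the list. Of the 19 genes, 1 was higher and 2 lower without overlap, near the 14.5% of all genes. In the Gq and calcium arm, through which the GRP receptor acts, all 12 were tested, 0 rose and 0 fell, and the median was 0.0053. Plcb4, a phospholipase C, averaged 111 ± 5.57 CPM for V and 124 ± 5.13 CPM for r1r2V, and Gna11, a G protein of the Gq class, 138 ± 0.922 and 127 ± 6.85 CPM (SD, n = 3 each).

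Further from the receptors, values were higher in r1r2V for some genes. Of 16 CREB factors and CRE-driven genes, 0 rose and 0 fell over all genes tested. Their median log2 fold change was 0.10 and 12 were positive, where 7578 of all 14438 genes were positive. At an unadjusted p under 0.05, 5 were higher and 0 lower, where 3.95% of all genes were higher and 3.63% lower. The list was chosen with earlier results of these data known, so these counts are no test of it. Its genes differed, with Fos at 0.04, Sik1 at -0.11 and Nr4a1 at -0.28 on the log2 scale. Fosb, an activity-induced partner of JUN, read 11.6, 8.96 and 7.74 CPM across V against 17.2, 21.2 and 14.9 CPM across r1r2V (0.91 on the log2 scale, edgeR adjusted p = 0.0668). Egr1, an activity-induced zinc finger factor, read 84.8, 79.4 and 66.1 CPM across V against 94.4, 107 and 103 CPM across r1r2V (0.40, edgeR adjusted p = 0.213). In both, every r1r2V library lay above every V library, which held for 5 of the 16 and for 6.87% of all genes. Among 10 genes that end receptor signals, 0 rose and 0 fell, the median log2 fold change was 0.018 and 5 were positive. Rgs16 and Rgs4, which speed the switching off of G proteins, had log2 fold changes of 0.85 and 0.55 (edgeR adjusted p = 0.0588 and 0.157). Rgs16 read 57.5, 53.7 and 56.1 CPM across V against 116, 114 and 71.8 CPM across r1r2V, and Rgs4 206, 183 and 188 CPM against 264, 345 and 238 CPM, without overlap. They were the only 2 of the 10 without overlap, where 14.5% of all genes did not overlap. DESeq2 called 4 genes of the CREB and signal-ending lists higher, Fosb, Egr1, Rgs16 and Rgs4, and 69 over all genes. Without r1r2V replicate 5, edgeR called Rgs16, Rgs4 and Fosb, with adjusted p of 0.000138, 0.0344 and 0.0360, and 52 higher over all genes. Neither list held a call with limma, with other scalings or with the filter of 1 CPM in 3 libraries. The same was true when any other single library was left out. Of 8 genes of peptide processing and breakdown, 1 rose and 0 fell, where 0.298% of all genes rose and 0.118% fell. This list too was chosen with earlier results of these data known, so its counts are no test of it. The gene that rose was Scg5, a chaperone of the convertase that cuts peptide precursors. Scg5 read 382, 375 and 382 CPM across V against 733, 565 and 597 CPM across r1r2V (0.73, edgeR adjusted p = 0.00641). Leaving out any 1 of the V libraries ended the call (edgeR adjusted p from 0.0571 to 0.0600) at a log2 fold change of 0.73 to 0.74, in fits where calls over all genes also fell, from 43 higher to 19 or 20.

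**Figure D5:**
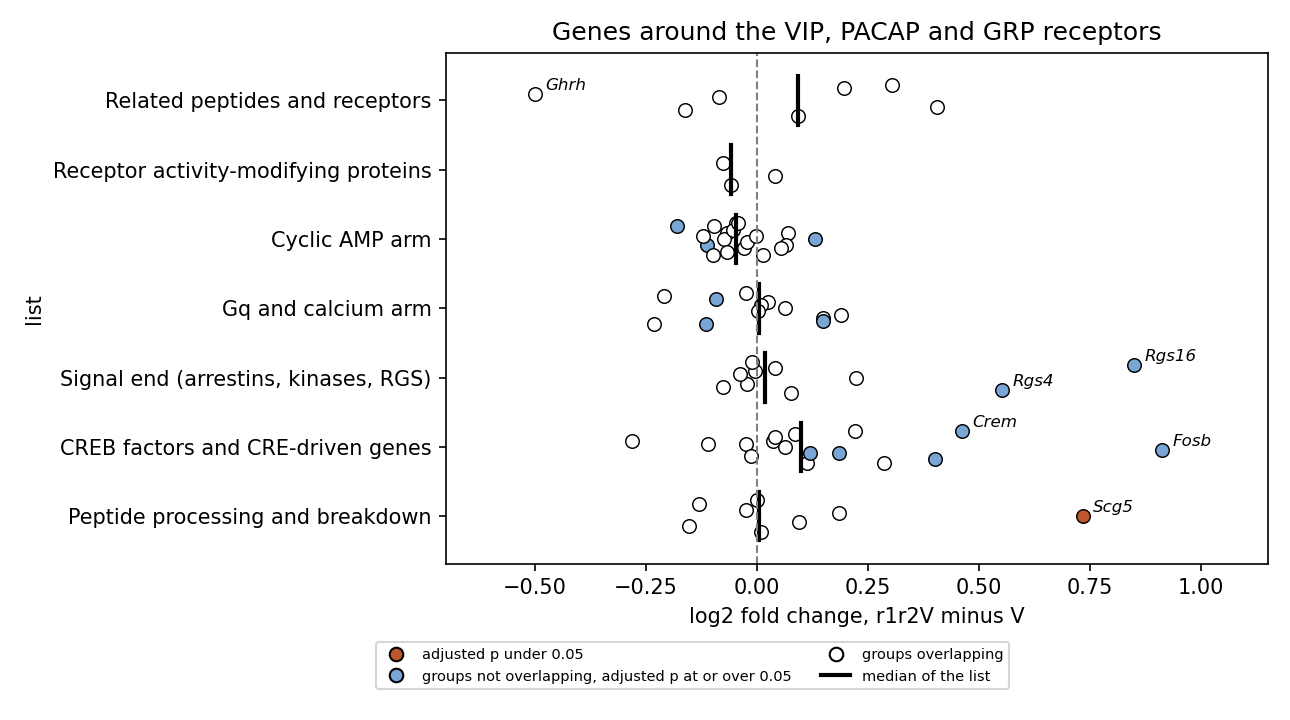
Log2 fold change (r1r2V minus V) of each tested gene of the 7 pathway lists, with the median of each list as a black bar. Scg5 is the filled orange point past an adjusted p of 0.05, and the blue points, such as Fosb, Rgs16, Rgs4 and Crem, are genes whose groups did not overlap but which did not pass.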

How the data were processed

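Each deposited table holds, per the file headers, an expected count (an estimated read number, of which 9.9% were not whole) and an FPKM for every listed gene. The authors scaled FPKM by transcript length and mapped fragments, per the file headers. The submitters' processing notes name RSEM 1.2.12, Bowtie2 2.2.5, DESeq2, HISAT2 2.0.4, GATK, Cufflinks 2.2.1, StringTie 1.0.4 and mm10, while the sources used here leave out their roles, the filters and the use of strand. Genes missing from a table were set to 0.

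Expected counts were rounded, filtered with filterByExpr (minimum count 10, leaving 14438 genes) and scaled by TMM. Groups were compared with edgeR 4.0.16 (glmQLFit and glmQLFTest, R 4.3.3), with Benjamini-Hochberg adjustment over all genes and a threshold of 0.05, on code tested on simulated data. CPM values use the scaled library sizes. Log2 CPM used a prior count of 2. Intervals are 95% intervals. Alternatives were DESeq2 1.42.0, limma 3.58.1 (voom, and log2(FPKM + 1) and log2(FPKM + 0.1)), other scalings and filters, and leaving out each library. Near-identical transcripts were searched with BLAST+ 2.17.0 (95% identity over at least 0.5 of the shorter transcript). Within groups, libraries differed beyond sampling noise (chi-square per degree of freedom 3.85 to 5.58 for V and 11.65 to 13.51 for r1r2V), and each counted as 1 sample.

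All 7 members were named whatever their p. Of each of 7 pathway lists, called genes were named, or else the 2 with the smallest p, and of profiles the 5 nearest. Of the 14 marker lists, those not described stood at most 0.54 log2 units from the V mean in any library. The members and lists were chosen with earlier results of these data known.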

Additional observations from a re-analysis of the deposited data

How the results depend on the processing

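No paired analysis was possible because replicate 4 is the only number found in both groups. Under 14 alternatives (13 for Vipr1, which had no value with the filter of 1 CPM in 3 libraries) no member passed, with adjusted p from 0.352 to 1.000 (edgeR, DESeq2 or limma). Vip ran from -1.04 to -0.058, Vipr2 from -0.60 to -0.27, Adcyap1r1 from -0.14 to -0.079, Adcyap1 from -0.10 to 0.16, Grp from -0.29 to 0.031 and Vipr1 from 0.0066 to 0.39. Leaving out r1r2V replicate 5 changed the sign of Adcyap1 (-0.10), Grp (0.031) and Vip relative to the SCN transcription factors (0.065), and leaving out V replicate 2 that of Adcyap1 (-0.039). With 1 library left out, Vip relative to those factors ran from -1.19 to 0.065. Over all genes, DESeq2 called 69 higher and 40 lower, against 43 and 17 with edgeR. With 1 library left out, edgeR called 19 to 52 higher and 7 to 24 lower. Omitting V replicate 2 left 20 and 7, omitting V replicate 3 left 20 and 8, and omitting V replicate 4 left 19 and 7, with fewer samples in the fit. For the sign changes, the cause was not tested. With no filter, edgeR also called Rgs16 and Fosb. Depth limits Vipr1 and Grpr, at 7 to 17 counts a library.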

Other observations

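Among receptors for related peptides that did not pass the filter on low counts, Gipr, the receptor of a gut hormone of the secretin family, was picked out with its values in view. Its expected counts summed to 30 for V and 11 for r1r2V. By library it read 0.677, 0.563 and 0.508 CPM across V against 0.406, 0.115 and 0.117 CPM across r1r2V, so the groups did not overlap. Of all genes tested, 14.5% did not overlap. Tested without the filter, its log2 fold change was -1.43 and it did not pass (edgeR adjusted p = 0.635).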
